A study of Mus musculus with 18 samples.

Results

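The 9 transcription factors Tbx21, Gata3, Rora, Bcl6, Maf, Irf4, Prdm1, Ahr and Id2 were followed in regulatory T cells (Tregs), CD4 T cells defined by Foxp3 and known for holding immune responses in check. They were taken from the deposited count tables by gene name, and all 9 were found among 46078 genes. Each of the 9 passed the filter on low counts in every comparison. All mice were males of the strain Foxp3(DTR/GFP), 10 weeks old, in which the Foxp3 gene also drives a diphtheria toxin receptor and a green fluorescent protein, so every group carried that allele, spleen included. Tregs were sorted by flow cytometry 7 days after 1 of 4 injuries, namely a cranial bone defect, a volumetric loss of quadriceps muscle, full-thickness punches through skin, or ligation of the left coronary artery to give a heart infarct. From each injured tissue came 3 bulk RNA sequencing libraries, and the cells of each were pooled from 3 mice. The control was 6 libraries of spleen Tregs from uninjured mice, for which pooling is not stated. Uninjured bone, muscle, skin and heart and the spleen of injured mice were not analysed here, so the effects of injury and of tissue cannot be told apart. Below, a gene that rose or fell did so relative to uninjured spleen.

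As background, T-bet (Tbx21), GATA3 and BCL6 set the type-1, type-2 and follicular programs of helper T cells, and c-MAF and RORα (Rora) add to such programs. Tregs that settle in tissues take up parts of these programs while keeping Foxp3, and IRF4 together with BLIMP-1 (Prdm1) drives their effector state. AHR is a receptor for environmental and dietary ligands, and ID2 holds E proteins away from DNA.

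Total counts ran from 5970346 to 22635760 per library. Levels are TMM-scaled CPM (a gene's reads relative to the library's total, on a fixed common scale), as mean ± SD over libraries, and p-values measure the spread between libraries. Library names came in 2 styles, Endo (spleen replicates 1 to 3, all of skin, heart replicate 1) and Tregs (the others). Fold changes were adjusted for that style, so skin is set against spleen replicates 1 to 3, and both bone and muscle against replicates 4 to 6. All 6 Treg markers examined (Foxp3, Il2ra, Ikzf2, Ctla4, Cd4 and Cd3e) had reads in all 18 libraries, and their summed level was 3345 to 3926 CPM in spleen and 5075 to 7838 CPM in the injured tissues. B cell markers (10 genes) summed to 50.2 to 126 CPM in spleen, 61.5 to 72.3 (bone), 7.62 to 14.6 (muscle), 11.9 to 14.3 (skin) and 21.8 to 72.4 (heart).

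Of the 9 factors, 7 were higher than in spleen in each of the 4 injured tissues: Gata3, Rora, Maf, Irf4, Prdm1, Ahr and Id2. Tbx21 rose only in muscle among the 4 comparisons, and Bcl6 rose in skin and fell in muscle. The calls on Bcl6 in skin and muscle rest on spleen libraries of different styles, and each was lost in some alternative analyses. All calls come from edgeR's quasi-likelihood test at a Benjamini-Hochberg adjusted p under 0.05. In bone 7 of the 9 were higher and 0 lower, where 8.48% of all 15617 genes tested were higher. In muscle 8 rose and 1 fell, against 14.2% higher and 11.3% lower among all genes. In skin 8 rose and 0 fell, against 15% higher and 27.8% called in either direction. In heart 7 rose and 0 fell, against 11.8% higher and 20.3% called in either direction among 15025 genes. The median log2 fold change of the 9 was 1.01 (bone), 1.28 (muscle), 1.82 (skin) and 1.48 (heart), and that of all genes tested was 0.01, -0.01, -0.07 and -0.03. The 4 comparisons share the spleen libraries, so their likeness is not independent. In these bulk samples more RNA of a gene per cell and more cells that carry it cannot be told apart.

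**Figure D1:**
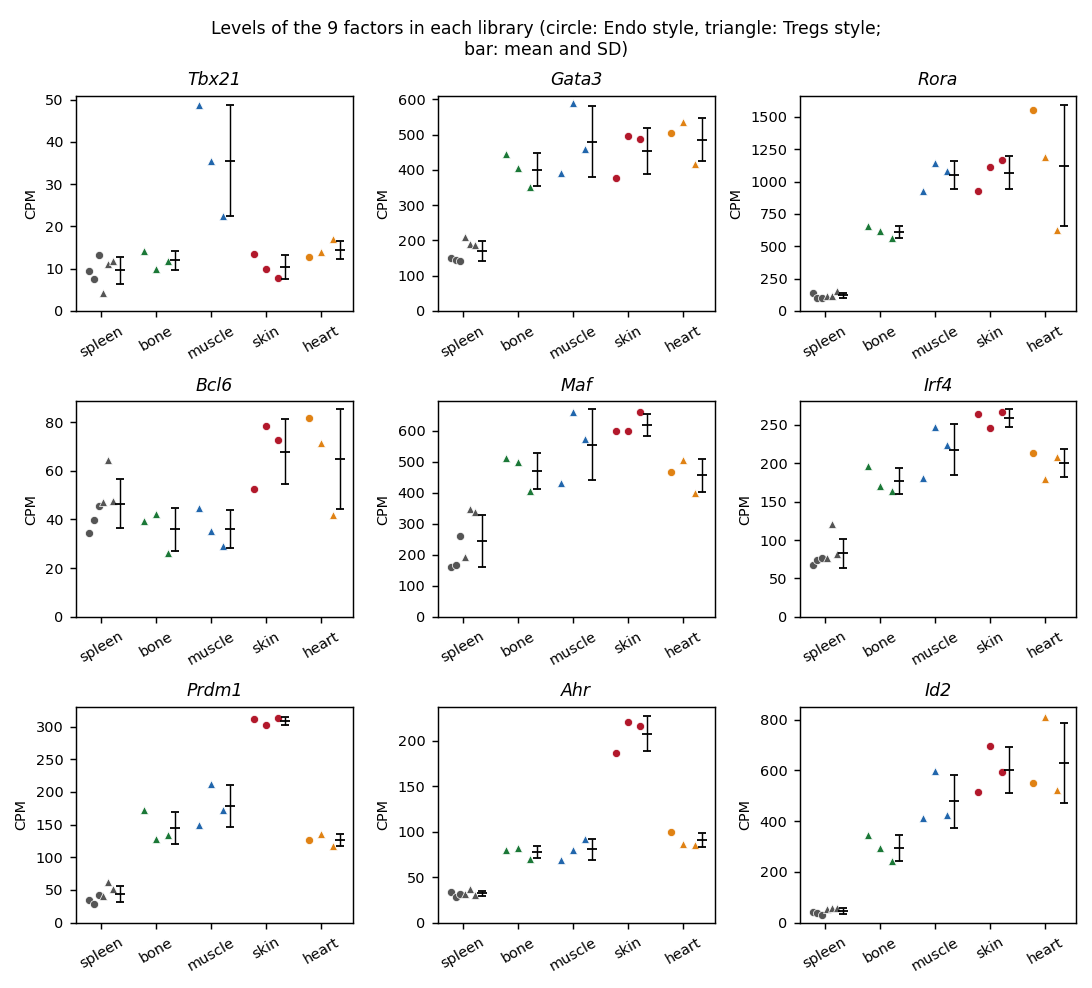
Level of each factor (CPM, linear axis from 0) in the 18 libraries, by tissue, with circles for Endo and triangles for Tregs library names and a bar for mean and SD. For Gata3, Rora, Maf, Irf4, Prdm1, Ahr and Id2 every library of an injured tissue lies above all 6 spleen libraries, while Tbx21 does so only in muscle and Bcl6 in none of the tissues.

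**Figure D2:**
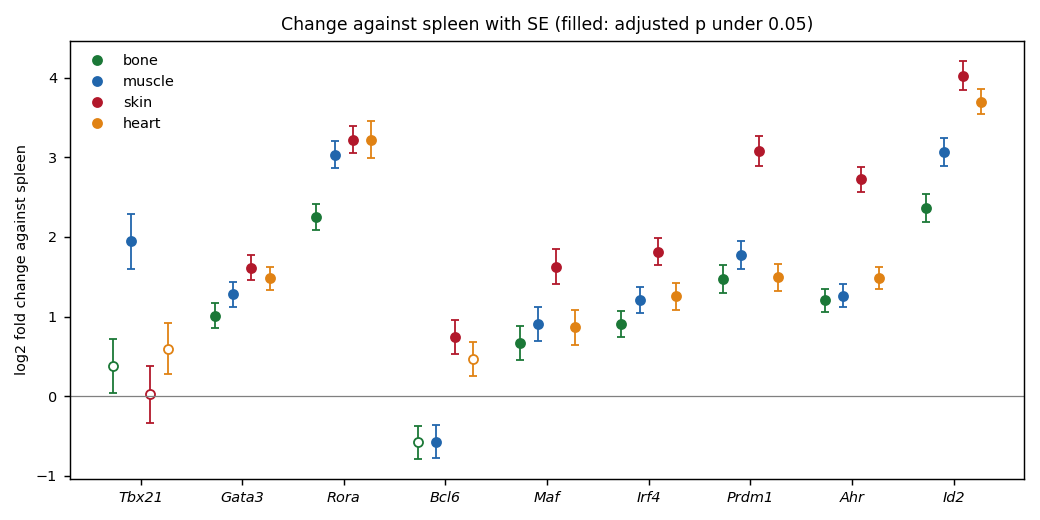
Log2 fold change against spleen with its SE for each factor in bone, muscle, skin and heart, filled where the adjusted p is under 0.05. Id2 in skin is highest at 4.03, and Bcl6 lies below 0 in bone and muscle and above 0 in skin and heart.

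RefSeq promoter sequences of build GRCm38.p6 were at hand for 7 of the 9 factors, in 8 windows of 300 bases, and were searched on both strands for 12 short motifs. Shown are the 250 bases before the start of Id2 and Rora, the 2 factors with the largest rises, of Prdm1, and of the 2 annotated starts of Bcl6, the factor whose direction differed between tissues. Capitals mark motif matches. The RefSeq starts of Prdm1 and Id2 and the second start of Bcl6 lie inside the gene spans given below, which come from GENCODE M21. The Bcl6 windows lie at chr16:23988853-23989102 and chr16:23981284-23981533, that of Prdm1 at chr10:44458749-44458998 and that of Id2 at chr12:25096093-25096342, all on the minus strand, and that of Rora at chr9:68653536-68653785 on the plus strand.
Bcl6, first start: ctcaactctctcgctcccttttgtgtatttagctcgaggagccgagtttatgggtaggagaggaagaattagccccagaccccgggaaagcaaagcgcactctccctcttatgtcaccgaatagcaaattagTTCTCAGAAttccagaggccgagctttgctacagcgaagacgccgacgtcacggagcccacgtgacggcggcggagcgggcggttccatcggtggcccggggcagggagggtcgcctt
Bcl6, second start: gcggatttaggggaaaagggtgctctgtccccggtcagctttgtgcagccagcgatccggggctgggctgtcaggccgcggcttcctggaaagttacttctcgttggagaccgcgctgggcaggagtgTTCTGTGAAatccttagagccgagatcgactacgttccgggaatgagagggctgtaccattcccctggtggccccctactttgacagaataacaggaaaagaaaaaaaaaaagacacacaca
Prdm1: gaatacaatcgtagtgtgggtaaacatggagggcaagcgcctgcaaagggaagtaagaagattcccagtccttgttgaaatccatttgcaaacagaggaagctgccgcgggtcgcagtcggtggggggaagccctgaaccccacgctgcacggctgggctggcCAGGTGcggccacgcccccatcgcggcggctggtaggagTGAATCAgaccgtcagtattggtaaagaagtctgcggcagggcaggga
Id2: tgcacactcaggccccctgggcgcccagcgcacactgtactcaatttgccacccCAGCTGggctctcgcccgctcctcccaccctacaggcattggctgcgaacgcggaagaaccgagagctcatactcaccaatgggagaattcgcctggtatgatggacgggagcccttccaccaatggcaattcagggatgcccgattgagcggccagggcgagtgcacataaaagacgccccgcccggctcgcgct
Rora: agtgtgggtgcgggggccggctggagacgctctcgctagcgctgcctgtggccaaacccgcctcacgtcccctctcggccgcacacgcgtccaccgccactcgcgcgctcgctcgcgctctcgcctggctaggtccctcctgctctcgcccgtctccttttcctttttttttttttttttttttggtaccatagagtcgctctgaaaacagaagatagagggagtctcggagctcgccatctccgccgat
Each Bcl6 window held 1 match of the BCL6 motif TTCNNAGAA, TTCTCAGAA at position -118 and TTCTGTGAA (the reverse strand) at position -122 from the start. That motif was found in 5.19% of all 32851 promoter windows, and in no window of the other factors. The Prdm1 window held the AP-1 motif TGANTCA as TGAATCA at position -48 (7.81% of all windows) and an E-box, CANCTG, as CAGGTG at position -87. The Id2 window held an E-box as CAGCTG at position -196, a motif present in 4 of the 8 windows and in 51.4% of all windows. The letters AGATAA, which bind the GATA proteins, and AGGTGTGA, the T-box motif, had no match in the 8 windows. The same held for the ROR motif AGGTCA and for the AHR motif TTGCGTG. It also held for the MAF motif TGCTGAC and the RUNX motif TGTGGT. The ETS motif CCGGAAG and the NF-kB and IRF motifs were not found either. A match describes letters, not a bound site.

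Tbx21 (chr11:97098071-97115331, minus strand, GRCm38) encodes T-bet, the factor of type-1 helper cells. In spleen it stood at 4.29 to 13.3 CPM (median 10.3, n = 6), in bone at 14.2, 9.85 and 11.9 CPM (replicate 1, libraries b and c) and in muscle at 48.8, 35.5 and 22.4 CPM (replicates 1 to 3, the order kept below). Skin held 13.6, 9.82 and 7.91 CPM and heart 12.8, 13.8 and 16.9 CPM. All 3 muscle libraries lay above every other library, and those of bone, skin and heart overlapped with spleen. Tbx21 rose 3.84-fold in muscle (log2 fold change 1.94 ± 0.35 (SE), adjusted p = 0.00019, edgeR's quasi-likelihood test), a call kept in each of 17 alternative analyses. The log2 difference from spleen was 0.38 ± 0.34 in bone, 0.03 ± 0.36 in skin and 0.60 ± 0.32 in heart, with adjusted p = 0.53, 0.97 and 0.22 in edgeR. Their 95% intervals were -0.29 to 1.04, -0.67 to 0.72 and -0.04 to 1.23. At 43 to 579 reads per library, Tbx21 was the least abundant of the 9 factors per exon length in spleen, bone, skin and heart.

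Between the injured tissues, Tbx21 was lower in bone than in muscle (log2 difference -1.57 ± 0.34, edgeR adjusted p = 0.0096). That call was lost without bone library b (adjusted p = 0.063), bone library c (0.054) or muscle replicate 1 (0.060), the muscle library with the most Tbx21. The difference between muscle and skin was 1.92 ± 0.49 (edgeR adjusted p = 0.056, and 0.042 without muscle replicate 3), and between heart and muscle -1.30 ± 0.35 (adjusted p = 0.12). Over the 18 libraries, the genes with the most similar log2 levels were Nkg7 (r = 0.89), Ccl5 (r = 0.87) and Cxcl10 (r = 0.83), of 8378 genes compared. These encode a granule protein of cytotoxic lymphocytes, a chemokine of activated T cells and a chemokine induced by interferon. Markers of CD8 T and NK cells (8 genes) summed to 27.7 to 47.9 CPM in spleen, 31.9 to 38.3 (bone), 31.9 to 42.6 (muscle), 40.6 to 46.3 (skin) and 16.99 to 31.3 (heart). The muscle libraries lay above those of heart and overlapped with the other 3 groups, and the part of such cells in Tbx21 was not tested.

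Gata3 (chr2:9857078-9890034, minus strand), the factor of type-2 helper cells and of many tissue Tregs, stood at 143 to 211 CPM in spleen (median 169). It reached 446, 404 and 352 CPM in bone and 392, 588 and 460.2 CPM in muscle. Skin held 378, 495 and 487 CPM and heart 506, 535 and 417 CPM. Every injured library lay above every spleen library, and the 4 injured tissues overlapped. The log2 fold change was 1.01 ± 0.15 (bone), 1.28 ± 0.15 (muscle), 1.61 ± 0.16 (skin) and 1.48 ± 0.14 (heart), with adjusted p of at most 4.6e-05 (edgeR). None of the 6 direct comparisons between injured tissues passed for Gata3, where the smallest adjusted p was 0.091 for bone against skin in edgeR (0.043 without skin replicate 1). Its spleen level differed by library style, at 142.7 to 150.3 CPM in the Endo and 187 to 211 CPM in the Tregs libraries. In the annotation 3 other genes overlap Gata3, with 2 of them on the other strand, and the strand setting of the counting is not given, so reads of these genes cannot be told apart. The closest pattern over the 18 libraries was that of another member of the set, Id2 (r = 0.98), followed by Plxnd1 (r = 0.98) and Ets2 (r = 0.98).

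Rora (chr9:68653786-69388246, plus strand) encodes RORα, an orphan nuclear receptor of group 2 innate lymphoid cells and skin Tregs. In spleen it stood at 97.8 to 154 CPM (median 113), in bone at 657, 617 and 565 CPM and in muscle at 929, 1142 and 1084 CPM. Skin held 924, 1114 and 1166 CPM and heart 1551, 1192 and 623 CPM. The lowest injured library was bone library c, well above all of spleen, and heart spread widely, with replicate 1 highest of all libraries and replicate 3 within the range of bone. Rora rose 4.76-fold (bone), 8.17-fold (muscle), 9.33-fold (skin) and 9.31-fold (heart) (log2 2.25 ± 0.17, 3.03 ± 0.17, 3.22 ± 0.17 and 3.22 ± 0.23, edgeR adjusted p of at most 8.1e-07). Without heart replicate 3 the heart value was 3.53 on the log2 scale.

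Rora was lower in bone than in muscle (-0.78 ± 0.16, edgeR adjusted p = 0.0059, 0.053 without bone library c) and than in skin (-0.97 ± 0.23, adjusted p = 0.0094). With all 18 libraries in 1 fit both calls were lost (edgeR adjusted p = 0.063 and 0.18), and with the replicate block too (0.46 and 0.20). It was higher in heart than in bone (0.81 ± 0.24, edgeR adjusted p = 0.044). The heart call was lost without any of the 3 bone libraries or heart replicates 1 or 2 (adjusted p = 0.072 to 0.20), and without spleen replicates 1 and 2, the spleen libraries richest in ribosomal RNA (0.084). Muscle, skin and heart overlapped, and their direct differences were -0.19 (muscle against skin), 0.03 (heart against muscle) and 0.15 (heart against skin), with intervals of -0.63 to 0.25, -0.44 to 0.50 and -0.34 to 0.64. The most similar genes were Osbpl3 (r = 0.99), Slc16a6 (r = 0.99) and Tnfrsf10b (r = 0.99). The annotation places Gm15511 on the strand opposite to Rora.

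Gata3, Rora and Id2 are also factors of group 2 innate lymphoid cells, so markers of those cells stand beside them. The 6 markers summed to 33.1 to 65.9 CPM in spleen, 233 to 359 (bone), 406 to 710.0 (muscle), 529 to 662 (skin) and 496 to 688 (heart). Most of that sum was Klrg1, which effector Tregs also express, with 42.1 ± 16 CPM in spleen and 260.3 ± 63, 486 ± 163, 544 ± 72 and 508 ± 104 CPM in the injured tissues in the same order. Hs3st1 reached at most 3.07 CPM and Nmur1 at most 9.13 CPM in any library, while Calca reached 51.1 CPM in a heart library and Il17rb reached 30.3 CPM. Kit reached 22.2 CPM in skin. The part of such cells in the 3 factors was not tested.

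Bcl6 (chr16:23965052-23988852, minus strand) encodes the repressor of follicular helper cells, which is opposed by BLIMP-1. It stood at 34.6 to 64.6 CPM in spleen (median 46.5), 39.5, 42.3 and 26.0 CPM in bone and 44.5, 35.2 and 29.1 CPM in muscle. Skin held 52.7, 78.4 and 72.6 CPM and heart 81.5, 71.4 and 42.0 CPM. Each injured tissue overlapped with spleen, with bone and muscle toward or below the low end of the spleen range, and 2 of 3 libraries each of skin and heart above it. The spleen level of Bcl6 differed by library style, at 34.6 to 45.7 CPM in the Endo and 47.2 to 64.6 CPM in the Tregs libraries. Skin was thus set against the lower spleen values, and bone and muscle against the higher ones. In skin Bcl6 rose 1.67-fold (log2 0.74 ± 0.21, edgeR adjusted p = 0.011), a call lost without skin replicate 2 (adjusted p = 0.066), without spleen replicates 1 and 2 (0.22) or with all 18 libraries in 1 fit (0.076). In muscle Bcl6 fell by 0.57 on the log2 scale (SE 0.21, edgeR adjusted p = 0.046), a call lost in 11 of 17 alternatives. Among them were the removal of muscle replicate 2 or 3 or of any of spleen replicates 1, 2, 4, 5 and 6 (adjusted p = 0.050 to 0.22). That call was also lost with no style term and with spleen libraries of the same style only. The difference was -0.58 ± 0.21 in bone (edgeR adjusted p = 0.064) and 0.47 ± 0.22 in heart (adjusted p = 0.15, 0.016 without heart replicate 3, the lowest heart library).

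Between injured tissues Bcl6 was lower in bone than in skin (-1.32 ± 0.30, edgeR adjusted p = 0.0073) and lower in muscle than in skin (-1.31 ± 0.30, adjusted p = 0.028), and no library of bone or muscle reached those of skin. The muscle call was lost without any of muscle replicates 2 and 3 or skin replicates 2 and 3 (adjusted p = 0.052 to 0.088), and both calls were lost without spleen replicates 1 and 2 (0.081 for bone, 0.20 for muscle) and with all 18 libraries in 1 fit (0.055 and 0.17). In heart Bcl6 was higher than in bone (0.89 ± 0.26, edgeR adjusted p = 0.043), a call lost without any bone library or heart replicate 1 or 2 (0.066 to 0.17) and without spleen replicates 1 and 2 (0.057). Heart and muscle differed by 0.88 ± 0.26 (adjusted p = 0.19, and 0.029 without heart replicate 3). Bone against muscle gave a difference of -0.01 with an interval of -0.41 to 0.40. B cells also express Bcl6, and their markers were lowest in muscle and skin, where Bcl6 had means of 36.2 ± 7.8 and 67.9 ± 13 CPM. The part of B cell RNA in these values was not tested. The most similar genes over the libraries were Sat1 (r = 0.79), Vaultrc5 (r = 0.79) and Rpap3 (r = 0.78), the lowest likeness of the 9 factors.

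Maf (chr8:115682942-115707794, minus strand) encodes c-MAF, a basic leucine zipper factor that promotes interleukin-10 and, in Tregs, follicular programs. It stood at 161 to 347 CPM in spleen (median 228), 511, 499 and 405 CPM in bone and 432, 659.5 and 573 CPM in muscle. Skin held 598, 598 and 660.2 CPM and heart 467, 505 and 398 CPM. All injured libraries lay above all spleen libraries, and the nearest were spleen replicate 5 and heart replicate 3. The log2 fold change was 0.67 ± 0.21 (bone), 0.90 ± 0.22 (muscle), 1.63 ± 0.22 (skin) and 0.87 ± 0.22 (heart), with edgeR adjusted p = 0.042, 0.0038, 1.0e-05 and 0.012. The bone call was lost without bone replicate 1 (adjusted p = 0.13), bone library b (0.12) or spleen replicate 4 (0.15), and the heart call without heart replicate 1 (0.14). None of the direct comparisons between injured tissues passed, and the smallest adjusted p was 0.057 for bone against skin (-0.96 ± 0.30, edgeR). Gm15655 lies on the strand opposite to Maf. Its most similar genes were Ptpn5 (r = 0.97), Hif1a (r = 0.97), the oxygen-regulated factor, and Cyfip1 (r = 0.96).

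Irf4 (chr13:30749226-30766976, plus strand), a factor induced by antigen receptor signals that works with BATF and is needed for effector Tregs, stood at 66.9 to 121 CPM in spleen (median 76.3). It reached 196, 170.1 and 164 CPM in bone and 181, 247 and 224 CPM in muscle. Skin held 265, 246 and 266 CPM and heart 213, 179.9 and 208 CPM. No injured library fell into the spleen range, and skin lay above bone and heart without overlap. The log2 fold change was 0.91 ± 0.16 (bone), 1.21 ± 0.16 (muscle), 1.82 ± 0.17 (skin) and 1.252 ± 0.16 (heart) (edgeR adjusted p of at most 0.00026), and all 4 calls were kept in every alternative. Bone was lower than skin (-0.91 ± 0.23, edgeR adjusted p = 0.014), a call lost without spleen replicates 1 and 2 (0.086). Muscle against skin gave -0.61 ± 0.23 and heart against skin -0.50 ± 0.19, with edgeR adjusted p = 0.23 and 0.21. Batf, the partner of IRF4, was measured at 29.5 ± 5.4 CPM in spleen and at 33.8 ± 9, 55.0 ± 15, 125 ± 30.4 and 60.9 ± 12 CPM in bone, muscle, skin and heart. It rose in muscle, skin and heart (log2 0.80, 2.14 and 0.98) but not in bone (0.11, edgeR adjusted p = 0.83). The muscle call on Batf, a gene chosen after its values were seen, was lost when muscle replicate 1 or spleen replicate 4 was removed (adjusted p at most 0.074). The genes most like Irf4 were Fam129a (r = 0.98), Havcr2 (r = 0.98), which encodes the receptor TIM-3, and Jak3 (r = 0.98).

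Prdm1 (chr10:44437177-44528501, minus strand) encodes BLIMP-1, the repressor that marks terminal effector Tregs and plasma cells. In spleen it stood at 29.3 to 62.1 CPM (median 42.1), in bone at 173, 128 and 134 CPM and in muscle at 149, 212 and 173 CPM. Skin held 311, 302 and 314 CPM and heart 126, 136 and 117 CPM. Skin stood apart from the other 3 injured tissues, and its libraries were within a narrow range, while heart overlapped with bone. Prdm1 rose 2.77-fold (bone), 3.41-fold (muscle), 8.45-fold (skin) and 2.81-fold (heart) (log2 1.47 ± 0.17, 1.77 ± 0.18, 3.08 ± 0.19 and 1.49 ± 0.17, edgeR adjusted p of at most 3.1e-05). It was lower than in skin in bone (-1.61 ± 0.25, edgeR adjusted p = 0.00028), in muscle (-1.31 ± 0.25, 0.0067) and in heart (-1.52 ± 0.21, 8.1e-05). The muscle call was lost without spleen replicates 1 and 2 (0.083). Plasma cell markers (5 genes) summed to 5.96 to 34.5 CPM in spleen, 2.43 to 18.8 (bone), 0.910 to 2.53 (muscle), 2.26 to 5.91 (skin) and 2.20 to 30.5 (heart). Their part in Prdm1 was not tested. The genes most like Prdm1 were Icos (r = 0.98), a costimulatory receptor of effector Tregs, Cdk6 (r = 0.98) and Gem (r = 0.97).

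Ahr (chr12:35497974-35535038, minus strand), the aryl hydrocarbon receptor, was held within a narrow range in spleen, at 27.7 to 37.3 CPM (median 31.7). It reached 79.7, 82.5 and 70.3 CPM in bone and 69.4, 80.3 and 92.1 CPM in muscle. Skin held 186, 221 and 216 CPM and heart 99.5, 87.0 and 85.5 CPM. Bone, muscle and heart lay close together and skin far above them, with no overlap. The rise was 2.30-fold (bone), 2.40-fold (muscle), 6.60-fold (skin) and 2.81-fold (heart) (log2 1.20 ± 0.15, 1.26 ± 0.15, 2.72 ± 0.16 and 1.49 ± 0.14, edgeR adjusted p of at most 4.3e-06). The direct differences from skin were -1.52 ± 0.21 in bone, -1.46 ± 0.21 in muscle and -1.20 ± 0.17 in heart, with edgeR adjusted p = 7.6e-05, 0.00067 and 0.00014, and all 3 calls were kept in every alternative. All of skin has the Endo library style and all of bone and muscle the other, so the first 2 differences also rest on the spleen libraries of both styles, where Ahr was 27.7 to 33.6 CPM (Endo) and 30.5 to 37.3 CPM (Tregs). Heart replicate 1, of the Endo style, held 99.5 CPM, far below the skin libraries of that style. The genes most like Ahr were Cldnd1 (r = 0.98), Alox8 (r = 0.97) and Gcnt1 (r = 0.97).

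Id2 (chr12:25093799-25097140, minus strand), an inhibitor of E proteins, showed the largest fold change of the 9 factors in skin and heart, in every alternative too. In bone and muscle its fold and that of Rora differed by less than their errors, and their order turned without spleen replicate 6 in both tissues and, in muscle, without muscle replicate 2 or with all 18 libraries in 1 fit. In spleen it stood at 31.6 to 59.2 CPM (median 46.9), in bone at 344, 296 and 242 CPM and in muscle at 413, 597 and 423 CPM. Skin held 514, 696 and 595 CPM and heart 549, 809.6 and 524 CPM. The spleen libraries were all far below the injured ones, bone lay below the other injured tissues without overlap, and muscle, skin and heart overlapped. Id2 rose 5.15-fold (bone), 8.37-fold (muscle), 16.3-fold (skin) and 12.9-fold (heart) (log2 2.36 ± 0.17, 3.07 ± 0.18, 4.03 ± 0.19 and 3.69 ± 0.16, edgeR adjusted p of at most 3.8e-09). It was lower in bone than in muscle (-0.70 ± 0.16, edgeR adjusted p = 0.015), skin (-1.66 ± 0.24, 0.00013) and heart (heart minus bone 1.26 ± 0.19, 0.00069). The call against muscle was lost without bone library b (0.063), bone library c (0.11) or muscle replicate 2 (0.10). Muscle was called lower than skin (-0.96 ± 0.24, edgeR adjusted p = 0.046) although the libraries overlapped, and that call was lost in 8 of 13 alternatives, among them the removal of muscle replicate 1 or 3, of skin replicate 2 or 3, or of spleen replicates 1 and 2 (0.050 to 0.14). Spleen libraries of the Endo style held 31.6 to 40.1 CPM and those of the Tregs style 53.7 to 59.2 CPM, and the fold was larger in skin than in heart while the mean level was not (602 ± 91 and 628 ± 158 CPM). The genes most like Id2 were Odc1 (r = 0.99), the rate-limiting enzyme of polyamine synthesis, Ubl3 (r = 0.99) and Pcyt1a (r = 0.99).

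Among the 6 direct comparisons between injured tissues, members were called in 5. In bone against muscle 3 of 9 were lower in bone and 0 higher, where 2.29% of all genes were lower, 2.57% higher and 4.86% either. In bone against skin 6 were lower and 0 higher, against 4.55% of all genes lower, 3.56% higher and 8.11% either. In muscle against skin 4 were lower and 0 higher in muscle, against 0.692% of all genes lower, 0.621% higher and 1.31% either. In heart against skin 2 were lower and 0 higher in heart, against 0.892% of 15926 genes lower, 1.49% higher and 2.38% either. In heart against bone 3 were higher and 0 lower in heart, against 4.02% higher, 2.66% lower and 6.68% either. In heart against muscle 0 of the 9 passed edgeR's quasi-likelihood test, where 0.452% of all genes were called (0.358% higher, 0.0942% lower), while 3 members had an unadjusted p under 0.05 (Tbx21, Bcl6 and Id2) and DESeq2 called 1. The median log2 difference of the 9 was -0.30 in bone against muscle, -0.97 in bone against skin, -0.72 in muscle against skin, 0.27 in heart against bone, 0.03 in heart against muscle and -0.28 in heart against skin, and that of all genes was within 0.05 of 0 in each. Ahr and Prdm1 were the factors called lower than in skin in all 3 other injured tissues. No factor was called higher in bone, muscle or heart than in skin, and Tbx21 in muscle, at 1.92, came closest. The comparisons share libraries with each other. The count in bone against muscle was 0 without bone library c and 1 without bone library b, that in muscle against skin 2 without skin replicate 2 or 3, and that in heart against bone 1 without any 1 bone library or heart replicate 1 or 2. In heart against muscle it was 1 without heart replicate 3.

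**Figure D3:**
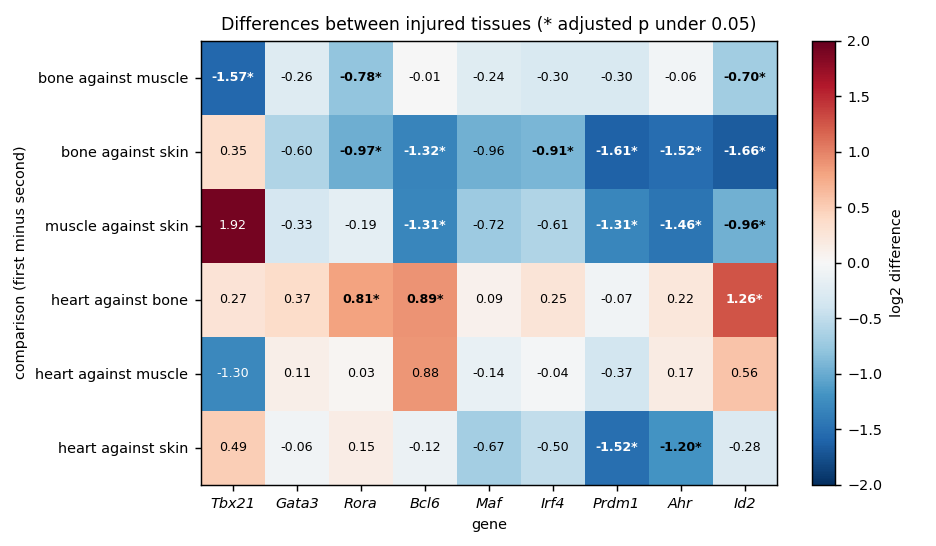
Log2 difference between each pair of injured tissues (first minus second, colour scale from -2 to 2) for the 9 factors, with a star where the adjusted p is under 0.05. Values for bone against skin are negative for 8 of the 9 factors, with Id2 at -1.66 and Prdm1 at -1.61, and no value for heart against muscle carries a star.

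Compared per length of exon (CPM per kilobase), the order of the factors changed from spleen to the injured tissues. In spleen Gata3 was highest at 43.0 ± 7.1, followed by Maf at 29.7 ± 10.1, Id2 at 19.0 ± 4.7 and Irf4 at 16.9 ± 3.9. The other 5 lay between 9.17 ± 1.7 for Rora and 3.85 ± 1.3 for Tbx21. Id2 and Irf4 were within each other's spread there, as were Prdm1 and Bcl6. In skin Id2 led with 247 ± 37, Gata3 followed with 114 ± 16 and Rora with 81.7 ± 9.7, and Prdm1 stood at 55.4 ± 1.1 and Irf4 at 52.8 ± 2.3. Id2 was also first in bone (121 ± 21), muscle (196 ± 42) and heart (258 ± 65), and in bone it lay above Gata3 (101 ± 12) within each of the 3 libraries although their ranges overlapped. Tbx21 was last in bone, skin and heart, at 4.82 ± 0.88, 4.19 ± 1.2 and 5.84 ± 0.86, and in muscle it reached 14.3 ± 5.3, above Bcl6 at 5.41 ± 1.2 and within the spread of Ahr at 13.1 ± 1.8.

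Pairs of factors with opposing roles or, for Id2 and Id3, with a like role were set against one another within each library, per exon length. Prdm1 over Bcl6 was 0.886 to 1.30 in spleen, 3.63 to 6.18 (bone), 4.02 to 7.26 (muscle), 4.63 to 7.09 (skin) and 1.85 to 3.36 (heart). The spleen libraries lay around parity, and heart was between spleen and the other injured tissues. Id2 over Id3, an inhibitor of the same proteins that naive-like Tregs express, was 0.298 to 1.06 in spleen and 5.97 to 21.7 in bone, and 47.4 to 138, 63.0 to 129.5 and 40.8 to 128 in muscle, skin and heart. Irf4 over Bach2, a repressor of effector genes, was 0.943 to 1.95 in spleen, 6.46 to 7.79 (bone), 24.5 to 59.9 (muscle), 60.5 to 215 (skin) and 9.75 to 13.6 (heart). In each of these 3 ratios no injured library overlapped with spleen, a description with no test, since the members of the pairs were chosen with their changes known. Gata3 over Tbx21 was 6.72 to 30.7 in spleen, 18.5 to 25.7 (bone), 5.03 to 12.8 (muscle), 17.4 to 38.5 (skin) and 15.4 to 24.7 (heart), so muscle lay below the other injured tissues and within the range of spleen or under it.

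**Figure D4:**
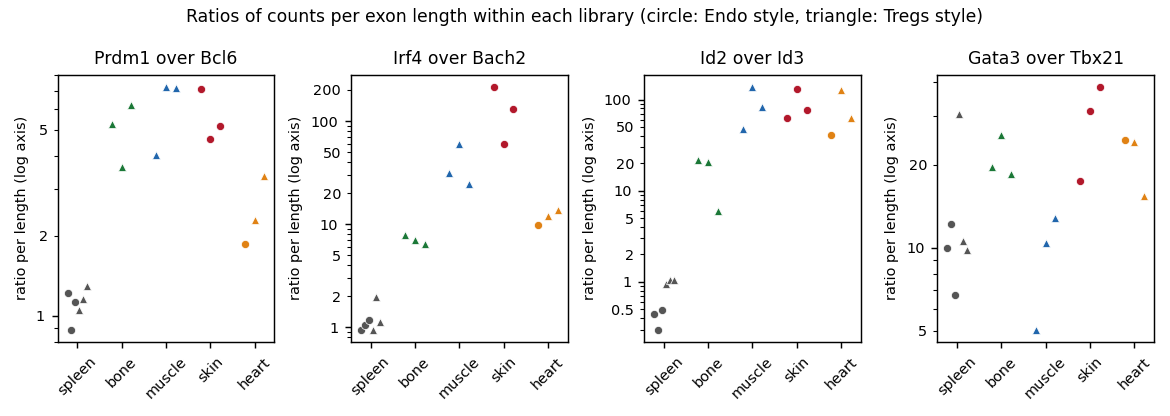
Ratio of 2 factors' counts per exon length in each library (log axis), by tissue, with circles for Endo and triangles for Tregs library names. For Prdm1 over Bcl6, Irf4 over Bach2 and Id2 over Id3 all injured libraries lie above all spleen libraries, and Irf4 over Bach2 runs from 60.5 to 215 in skin.

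The genes known to work with or against the 9 factors were read from lists of their pathways, chosen with earlier results of these data known. Klf2, Cxcr3, Ccl5, Lag3, Entpd1 and Cyp1a1 were named after their values were seen. Of 7 factors that hold T cells in a naive or memory state, 6 fell in bone and all 7 in muscle, skin and heart, where 6.32%, 11.3%, 12.8% and 8.46% of all genes fell. Tcf7, which encodes TCF1, fell from 426 ± 54 CPM in spleen to 180.1 ± 31, 45.1 ± 12, 15.7 ± 1.5 and 118 ± 29 CPM in bone, muscle, skin and heart (log2 -1.40, -3.40, -4.63 and -1.88), and Bach2 from 142 ± 13 to 50.6 ± 1.2, 12.9 ± 5.2, 4.94 ± 3 and 35.4 ± 7.8 CPM. Both were lowest in skin. Id3, Lef1, Foxo1 and Satb1 also fell in all 4 comparisons, and the exception was Klf2 in bone (-0.41, edgeR adjusted p = 0.15). Over the alternatives without a single library the calls on Foxo1 in bone (edgeR adjusted p = 0.03), on Id3 in bone (0.014) and on Foxo1, Klf2 and Satb1 in heart (0.021, 0.025 and 0.018) were lost. Removing bone replicate 1 or bone library b was enough for Id3 and Foxo1 in bone, and heart replicate 2 for the 3 genes in heart, which left 4 of 7 called there. In skin 5 of 7 stayed called without spleen replicates 1 and 2. With the replicate block, in which bone is 1 library, 3 of 7 were called in bone, and Bach2 (edgeR adjusted p = 0.29), Lef1 (0.069) and Foxo1 were lost. The median log2 fold change of the 7 was -1.17, -2.15, -1.70 and -1.25 in bone, muscle, skin and heart.

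Of 20 dimer partners, cofactors and relatives of the 9 factors, all 20 were tested in bone, muscle and skin and 17 in heart. Of these, 5 rose and 3 fell in muscle, where 14.2% of all genes rose and 11.3% fell, and 3 rose and 2 fell in bone, against 8.48% and 6.32%. In skin 4 rose and 3 fell, against 15% and 12.8%, and in heart 4 and 2, against 11.8% and 8.46%. These counts of few genes are not far from the shares over all genes, and their median log2 fold change was 0.18, 0.11, 0.07 and 0.11 for bone, muscle, skin and heart. Among them Zbtb32 and Mafg rose in all 4, and Id3 and Zfpm1 fell in all 4. Zbtb32, a repressor that binds GATA3, rose from 3.63 ± 1 CPM to 9.99 ± 1.2, 16.53 ± 5.8, 10.2 ± 0.48 and 11.1 ± 3.9 CPM in bone, muscle, skin and heart. Zfpm1, the cofactor FOG1 of GATA proteins, fell from 66.4 ± 14 CPM to 52.1 ± 11, 41.2 ± 2.9, 20.6 ± 3.7 and 39.2 ± 3.3 CPM. The bone call on Zfpm1 (edgeR adjusted p = 0.03) was lost without bone replicate 1 or spleen replicate 5 or 6, and the heart call on Mafg (0.0053) without heart replicate 1. Without bone replicate 1, 0 of the 20 were lower in bone, and without muscle replicate 1, 3 were higher in muscle.

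Genes downstream of the lineage factors rose in part. Of 12 type-1 genes (11 tested in heart) 6 rose in each of bone and skin, 8 in muscle and 7 in heart, and 1 fell, in skin. Their median log2 fold change was 1.08, 1.62, 1.41 and 1.17 for bone, muscle, skin and heart. Over all genes 8.48%, 14.2%, 15% and 11.8% rose in the same order, and 12.8% fell in skin. Il18rap, a subunit of the interleukin-18 receptor, went from 20.2 ± 6 CPM in spleen to 112 ± 8.6, 183 ± 15, 151 ± 2.4 and 150.5 ± 51 CPM in bone, muscle, skin and heart, and Il18r1 and Runx3 also rose in all 4. Cxcr3, the chemokine receptor most closely tied to T-bet, stood at 64.2 ± 16 CPM in spleen and 69.7 ± 4, 99.6 ± 15, 31.1 ± 4.4 and 66.9 ± 18 CPM in the same order. It rose in muscle (log2 0.85, edgeR adjusted p = 0.0011) and fell in skin (-1.27, 1.5e-05). Muscle was the tissue where both Tbx21 and Cxcr3 rose. By the direct test both Cxcr3 and Ccl5 were called higher in muscle than in skin. Cxcr3 was also called higher in bone and in heart than in skin, and was not called between muscle and either bone or heart. Ccl5 was called lower in bone and in heart than in muscle.

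Of 12 type-2 genes 10 were tested in each comparison, and 7 rose in each of bone and skin, 8 in muscle and 9 in heart, with 0 lower. Their median log2 fold change was 1.73, 1.86, 2.77 and 2.13 for bone, muscle, skin and heart. Over all genes 8.48%, 14.2%, 15% and 11.8% rose in the same order. Il1rl1 (the interleukin-33 receptor), Ccr8, Ccr4, Il9r, Nfil3 and Plcd1 rose in all 4. Ccr8 went from 27.6 ± 1.7 CPM to 76.7 ± 26, 170.5 ± 29, 307 ± 9.5 and 241 ± 27 CPM in bone, muscle, skin and heart, and Nfil3, whose bone call was lost without bone replicate 1 (edgeR adjusted p = 0.055), from 25.2 ± 14 to 61.3 ± 13, 123 ± 10.2, 291 ± 15 and 129.6 ± 35 CPM.

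Of 12 follicular genes 11 were tested in bone, muscle and skin and 10 in heart. Of these, 2 rose in bone, muscle and skin and 3 in heart, where 8.48%, 14.2%, 15% and 11.8% of all genes rose. In bone, muscle, skin and heart 4, 8, 5 and 6 fell, where 6.32%, 11.3%, 12.8% and 8.46% of all genes fell. The median log2 fold change of the list was -0.41, -0.998, -0.86 and -0.79 in the same order. Icos and Pdcd1 rose in all 4, and both are also receptors of effector T cells. Cxcr5, Cd200, Btla and Sh2d1a fell in all 4. Cxcr5, the homing receptor of follicular cells, fell from 67.8 ± 19 CPM to 22.7 ± 8.5, 5.97 ± 3, 2.21 ± 1.4 and 19.0 ± 2 CPM in bone, muscle, skin and heart. It was lowest in skin, the tissue with the highest mean of Bcl6. B cells also express Cxcr5, and their markers were lower in muscle and skin (above), a part that was not tested. The bone call on Cxcr5 (edgeR adjusted p = 0.024) was lost without bone replicate 1, bone library b or spleen replicate 5 or 6, and the heart call on Sh2d1a (0.015) without heart replicate 1 or 2.

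Of 15 effector Treg genes linked to IRF4 and BLIMP-1, 14 rose in each of the 4 tissues and 0 fell, with a median of 2.09, 3.04, 3.48 and 3.54 in bone, muscle, skin and heart. Some of them also stand in the other lists (Icos, Ccr8 and Il1rl1). Over all genes 8.48%, 14.2%, 15% and 11.8% rose in bone, muscle, skin and heart. Havcr2 went from 2.84 ± 1.1 CPM to 60.0 ± 14, 77.3 ± 25, 153 ± 26 and 60.0 ± 11 CPM in bone, muscle, skin and heart, and Icos from 214 ± 39.5 to 843 ± 123, 1320 ± 175, 2406 ± 134 and 1114 ± 264 CPM. Both were highest in skin, as was Prdm1. The gene of the list that did not pass was Lag3, at 24.3 ± 15 CPM in spleen and 13.2 ± 2.9 CPM in heart (edgeR adjusted p = 0.067). In heart the call on Ebi3 (0.025) was lost without any 1 heart library. Of 10 AHR response genes 7 were tested in bone, muscle and skin and 6 in heart. Of these, 2, 4, 3 and 4 rose in bone, muscle, skin and heart, against 8.48%, 14.2%, 15% and 11.8% of all genes. None of them fell, and their median log2 fold change was 0.89, 1.07, 1.85 and 1.10. These are counts of few genes. Itgae, an integrin of epithelial residence, rose in all 4, from 57.0 ± 14 CPM to 188 ± 35, 234 ± 56, 639 ± 132 and 259 ± 48 CPM, and was highest in skin like Ahr. Cyp1a1, the classic AHR target, stood at most at 0.565 CPM in any library and was not tested. The call on Entpd1 in heart (edgeR adjusted p = 0.048) was lost in 11 of 16 alternatives.

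**Figure D5:**
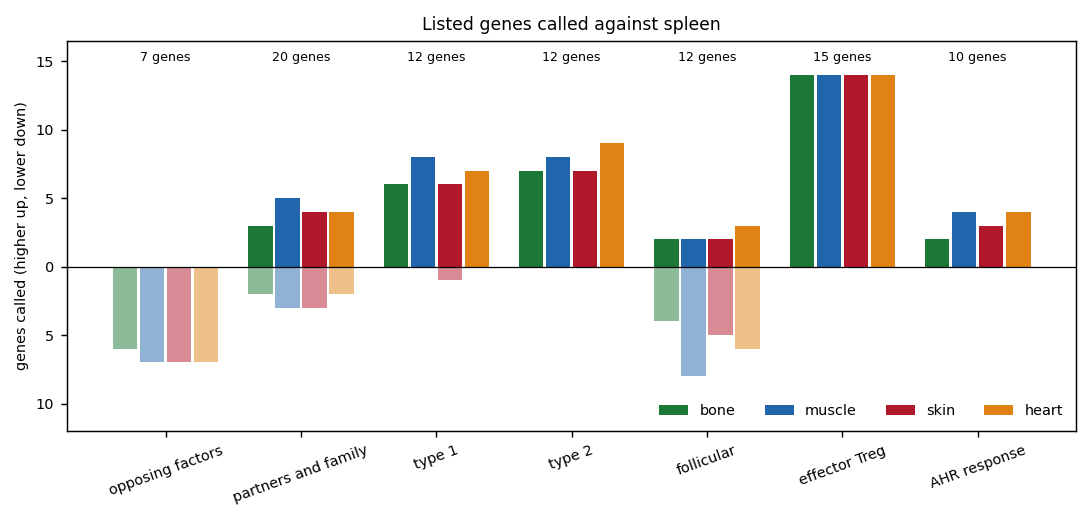
Number of listed genes called higher (solid, upward) and lower (pale, downward) than in spleen in bone, muscle, skin and heart, for 7 lists whose sizes stand above the bars. In the effector Treg list 14 of 15 rise in each tissue, and among the opposing factors 6 or 7 of 7 fall. Over all genes 8.48% to 15% were higher and 6.32% to 12.8% lower.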

How the data were processed

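RNA of sorted Tregs (1 ng per library, per the labels) was sequenced in 18 libraries, 3 each of bone, muscle, skin and heart and 6 of spleen. The deposited values are raw counts per gene for 46078 genes, in 1 table for bone, muscle, skin and spleen and 1 for heart and spleen. Per the submitters' processing notes, STAR, featureCounts and limma were used with build GRCm38, with versions and strand setting not given in the sources used here. Of the genes, 45229 (98.2%) had an entry in GENCODE M21, used for positions and exon lengths. No label ties 2 of the 3 bone columns to a replicate number, and these are called libraries b and c.

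Counts were tested with edgeR 4.0.16 (R 4.3.3), using filterByExpr, TMM scaling, the quasi-likelihood test with robust dispersion, tissue and library naming style as terms, and Benjamini-Hochberg adjustment over all genes tested, at 0.05. Comparisons of bone, muscle and skin used the 15 libraries of the first table, heart against spleen the 9 of the second, and heart against other injured tissues all 18. The code was tested on simulated data. Levels are CPM scaled over all 18 libraries and not adjusted for style, while fold changes are. Replicates are libraries, and whether spleen libraries came from separate mice is not stated. Alternatives were DESeq2 1.42.0, other scaling, no filter, no style term, spleen libraries of the same style only, all libraries in 1 fit, a replicate block and the removal of single libraries. The removal of spleen replicates 1 and 2, at 6.76% and 5.01% of ribosomal RNA the highest of all libraries, was chosen after seeing the data.

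The 9 factors, the pathway lists and the pairs of factors were chosen with earlier results of these data known. Text names, for each list, genes called in the same direction in all 4 comparisons with spleen or at either end of the list by mean fold change, with exceptions named where they occur, and for each factor the 3 genes with the highest Pearson correlation of log2 CPM (prior count 2) over the 18 libraries among genes averaging 3 or more log2 CPM. These correlations follow the tissues the libraries share and are given without a test.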

Additional observations from a re-analysis of the deposited data

Results flagged for a closer look

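Spleen replicate 5 held 120.9 CPM of Irf4, and stood apart from the other 5 spleen libraries by more than the 95% critical value of Dixon's test for 6 samples (gap over range 0.722 against 0.625). Chance gives such a sample in about 1 in 20 groups. The check was made on the spleen libraries for each of the 9 factors, and only Irf4 was flagged.

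The effect against spleen differed between injured tissues by the direct test (edgeR's quasi-likelihood test, adjusted p under 0.05) for the following factors, as log2 differences of the first tissue minus the second. In bone against muscle the difference was -1.57 for Tbx21, -0.78 for Rora and -0.70 for Id2. In bone against skin the difference was -0.97 for Rora, -1.32 for Bcl6, -0.91 for Irf4, -1.61 for Prdm1, -1.52 for Ahr and -1.66 for Id2. In heart against bone the difference was 0.81 for Rora, 0.89 for Bcl6 and 1.26 for Id2. In muscle against skin the difference was -1.31 for Bcl6, -1.31 for Prdm1, -1.46 for Ahr and -0.96 for Id2. In heart against skin the difference was -1.52 for Prdm1 and -1.20 for Ahr. The libraries whose removal ends each of these calls are given with the factor's values.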

How the results depend on the processing

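Of 90 tests (9 factors in 10 comparisons) 49 passed, of which 31 were kept in every alternative and 18 lost in at least 1. Another 9 passed in at least 1 alternative. In 0 did the sign change where the main or the alternative test passed. Differences that passed in neither could change sign, as for Prdm1 in bone against muscle (log2 -0.45 to 0.07 over the alternatives). Leaving out single libraries, the number of factors called against spleen ranged from 7 to 8 for skin, 6 to 8 for heart, 6 to 7 for bone and 8 to 9 for muscle. It ranged from 0 to 3 in bone against muscle, 6 to 7 in bone against skin, 2 to 4 in muscle against skin, 1 to 3 in heart against bone, 0 to 1 in heart against muscle and 2 to 2 in heart against skin. Without spleen replicates 1 and 2 it was 1 in muscle against skin and 1 in heart against bone, and with all 18 libraries in 1 fit 2 in muscle against skin, a fit that also ended the calls on Rora in bone against muscle and bone against skin and on Bcl6 in bone against skin and in skin and muscle against spleen. In heart against muscle DESeq2 called 1 and the fit without a filter 2. The causes were not tested.

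Deviations of same-numbered libraries of muscle, skin, heart and spleen had correlations from -0.27 to 0.36 over 9095 genes, so no regular pairing by number was seen. With so few libraries per group this check cannot exclude a pairing, and bone was not part of it. With a replicate block in place of naming style, which leaves out bone libraries b and c so that the 1 bone library is assumed to vary like the other groups, 0 factors were called in bone against muscle, 1 in bone against skin and 0 in heart against bone.

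The number of all genes called moved by more than 1.5 times in 8 comparisons. It was 2312 in bone against spleen (1420 to 2777 over the alternatives), 4342 in skin against spleen (2548 to 5080), 759 in bone against muscle (31 to 1270), 1267 in bone against skin (705 to 2814), 205 in muscle against skin (101 to 1132), 1064 in heart against bone (7 to 1630), 72 in heart against muscle (27 to 380) and 379 in heart against skin (205 to 909). Tbx21, with 43 to 579 reads per library, had the largest SE of the 9 factors in every comparison, and the part of read number in that was not tested.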
